A study of Mus musculus with 2 samples.

Results

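Potassium channel genes were described across whole fetal mouse brain by single-nucleus RNA-seq. The members were the genes whose symbol begins with Kcn, followed by a subfamily's letters and a number, and the rule found 92 of 55416 features. Each was counted as raw unique molecular identifiers (UMIs, 1 per captured RNA molecule) over barcodes with at least 500 detected genes and at most 5% mitochondrially encoded UMIs. Both groups were frozen whole brain of fetal mice, 1 wildtype and 1 in which Cav1, the gene of the membrane protein caveolin 1, was knocked out (KO). Each genotype had 1 library. The labels give no further age, strain or sex, and neither the knockout allele nor whether an animal or a pool was used.

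Potassium channels let potassium leave the cell along its gradient, which sets the resting potential and ends the action potential. Voltage-gated, calcium- or sodium-activated, inward rectifier and tandem-pore channels are built from different pore subunits, and auxiliary subunits change how the pores open or reach the membrane. In developing brain, dividing progenitors are held at a negative potential by leak and inward rectifier channels, and young neurons add voltage-gated and activated channels as they begin to fire.

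The library labelled wildtype (WT-labelled) kept 6686 nuclei with 17205381 UMIs, and the library labelled knockout (KO-labelled) kept 6680 nuclei with 19878903 UMIs. The median nucleus held 2133.5 UMIs in the former and 2366 in the latter, and 10 of the kept barcodes occurred in both. Total Cav1 was 71 UMIs against 80, or 4.13 and 4.02 CPM (UMIs scaled to a fixed total), so it did not separate the libraries, and they are named by their labels only. Caveolin 1 is best known from vessel walls, and endothelial cell-like nuclei held 17 Cav1 UMIs in the first library and 1 in the second. Reads from 3′ ends need not cover the altered part of the gene. With 1 library per genotype no difference between them has a replicate check. All intervals are 95% intervals for counting error only.

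Of the 92 members, 85 had UMIs in both libraries, 5 were at 0 in each library, and 60 reached 100 UMIs in both libraries together. Of the 32 under that minimum, 3 were at 0 in both libraries (Kcna10, Kcnj1 and Kcnk16). Together the members took 93222 UMIs (0.542% of all) in the WT-labelled library and 111715 (0.562%) in the KO-labelled library. A few members carried most of this, since the 15 most abundant held 83.4% and 82.5% of the family's UMIs.

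Voltage-gated channels held most of the family's UMIs, a sum that is not set per length and so favours long genes. Their 40 members, 27 of them over the minimum, held 61.7% of the family's UMIs in the WT-labelled and 60.7% in the KO-labelled library. The 15 auxiliary subunits held 15.9% and 17.4%. The 8 calcium- or sodium-activated channels held 12.0% in either library. The 14 tandem-pore channels, which carry leak currents, held 7.29% and 6.87%, and the 15 inward rectifiers held 2.97% and 3.08%.

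The member with most UMIs was Kcnd2, the pore of a rapidly inactivating A-type current, at 693 CPM (681 to 706) in the WT-labelled and 774 CPM (762 to 786) in the KO-labelled library. Kcnh7, a channel of the ether-a-go-go related group, followed at 627 and 615 CPM. Kcnq3, a subunit of the M current that restrains repeated firing, stood at 567 (556 to 579) and 481 (471 to 490) CPM. Kcnb2, a delayed rectifier, was at 494 and 521 CPM. Kcnip4, an auxiliary protein of the A-type pores, was at 418 and 482 CPM. Kcnma1, the large-conductance calcium-activated channel, was at 291 and 311 CPM. These levels hold per gene and are not compared between genes, because UMIs grew with gene length. Over the 60 members that passed, Spearman's rho of UMIs with the annotated gene span was 0.71 in the WT-labelled and 0.72 in the KO-labelled library, and with the exon length it was 0.43 and 0.46. The points share libraries and genes, so no test is attached.

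**Figure D1:**
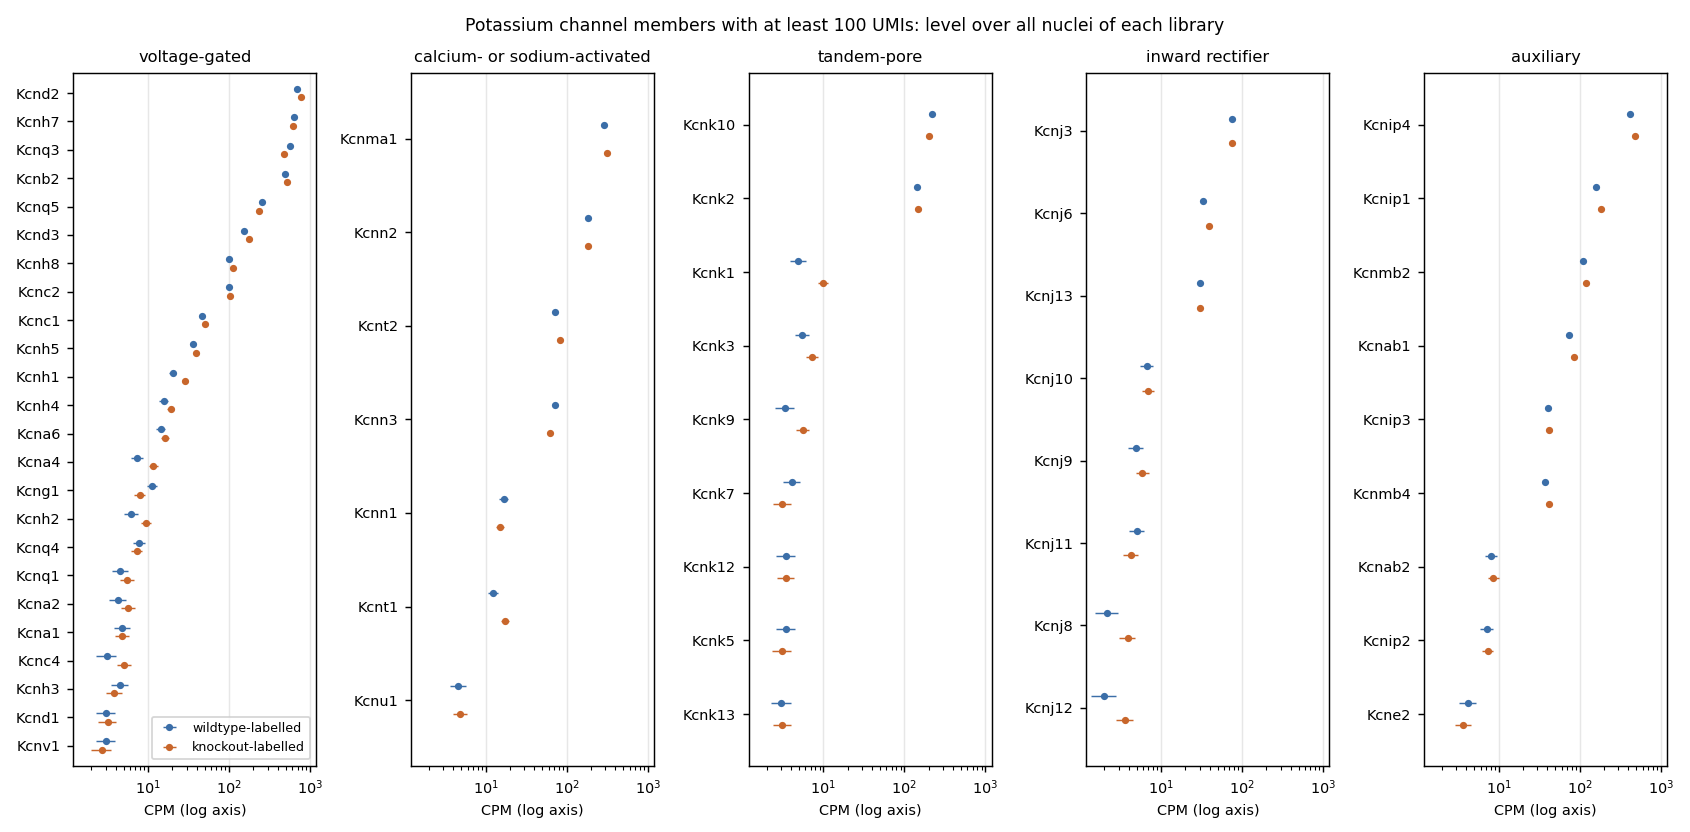
Level of 57 of the members with at least 100 UMIs, in CPM on a log axis, over all nuclei of the WT-labelled (blue) and KO-labelled (orange) library, by channel group. Bars are 95% counting intervals, and the points range from 1.98 CPM for Kcnj12 to 774 CPM for Kcnd2.

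Set per 10 kb of gene span, the order changed. Kcnj13 came out highest at 22.8 CPM per 10 kb (20.9 to 24.9) in the WT-labelled and 22.5 (20.8 to 24.4) in the KO-labelled library. Its gene lies within Gigyf2 on the opposite strand, and reads of such a pair cannot be told apart where the counting does not use strand, which is not stated. The M current subunit Kcnq3 ranked 2 in the WT-labelled library, at 18.9 CPM per 10 kb (18.5 to 19.3), and 3 in the KO-labelled library, at 16.0 (15.7 to 16.3). The leak channel Kcnk10 was at 14.9 and 13.6 CPM per 10 kb and Kcnd2 at 13.5 and 15.0. Set per kb of exon, Kcnd2 (120 and 134 CPM per kb) and Kcnip4 (115 and 133 CPM per kb) led, with Kcnh7 next at 40.4 and 39.6. Which scale applies depends on whether intronic reads were counted, which the sources used here do not give.

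Nuclei were clustered without any Kcn gene and named from marker genes, so the members took no part in the naming. The family took 6994 and 6575 CPM of the RNA of other excitatory neuron-like nuclei (WT-labelled, then KO-labelled) and 7252 and 7494 CPM in other inhibitory neuron-like nuclei, the 2 classes of neurons outside the forebrain lists. The inhibitory name of the second class is uncertain. Its cluster 12, with 446 and 811 nuclei, was named from Gata3, Lhx1, Lhx5, Pax2 and Slc6a5, without Gad1 or Gad2. The class had 781 and 629 CPM of its own marker list and 1762 and 2019 CPM of the other excitatory list. In cortical excitatory neuron-like nuclei the family took 6110 and 5962 CPM, and in forebrain inhibitory neuron-like nuclei 3759 and 3487 CPM. Radial glia-like nuclei, the progenitors of the ventricular zone, stood at 3958 and 3994 CPM. Intermediate progenitor-like nuclei were at 3240 and 3493 CPM. The highest share was in the few Cajal-Retzius cell-like nuclei (37 and 34), at 8625 and 10416 CPM. Forebrain inhibitory neuron-like nuclei thus had a lower family share than radial glia-like nuclei in either library. An unnamed cluster of 635 and 969 nuclei with few UMIs each (medians 740 and 706) stood far below the rest at 1013 and 1089 CPM.

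Neuron marker RNA was counted in every class. All 12 general neuron markers were detected in every non-neuronal class, with a summed level of 2527 and 2537 CPM in radial glia-like, 2059 and 2025 CPM in fibroblast-like, 2768 and 2659 CPM in endothelial cell-like nuclei, and 6293 and 6255 CPM in cortical excitatory neuron-like nuclei. The unnamed cluster, low in members, had 6259 and 6648 CPM of them. The part of this RNA in the members' levels outside neurons was not tested.

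Many members, though not all, were higher in neurons than in radial glia, and few were lower. Nuclei of all classes named as neurons, Cajal-Retzius cell-like nuclei included (4487 and 4299), were set against radial glia-like nuclei (610 and 575). Of 53 members with at least 100 UMIs in these classes, 25 were at least 2-fold higher in neurons in each library, against 9.07% of 14524 genes. Only 3 of the 53 were 2-fold higher in radial glia-like nuclei in each library, against 8.99% of all genes. Neurons held 12045667 and 14409033 UMIs and radial glia 1440577 and 1581538. A member of low level thus passed the joint minimum more readily if high in neurons. The same minimum applied to all genes. With a minimum of 20 UMIs the counts were 29 and 4, the latter with Kcnk5. The members' median log2 ratio was 1.16 in the WT-labelled and 1.11 in the KO-labelled library, beside -0.14 and -0.12 over all genes tested.

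Voltage-gated members gave 14 of the 25, out of 25 tested. Kcnb2 was at 604 CPM in neurons and 97.9 in radial glia in the WT-labelled library, and at 622 and 156 CPM in the KO-labelled library. The M current subunits Kcnq3 and Kcnq5 were among them. Kcnq5 had log2 ratios of 2.12 and 1.75, and Kcnq3 of 1.48 and 1.08. The fast delayed rectifiers Kcnc1 and Kcnc2, which allow rapid firing, were called too, with log2 ratios between 1.12 and 2.03. Kcna4, Kcng1, Kcnh1, Kcnh2, Kcnh3, Kcnh4 and Kcnh8 were also on the voltage-gated list. Calcium- or sodium-activated channels had 5 of 7 called. Kcnma1 reached 376 CPM in neurons against 42.3 in radial glia in the WT-labelled and 384 against 80.3 in the KO-labelled library. The small-conductance channels Kcnn1 and Kcnn2, the sodium-activated channel Kcnt1 and Kcnu1 were the others. Kcnu1, best known from sperm and placed in this group by the letters of its symbol alone, rested on 66 and 86 UMIs in neurons.

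Among inward rectifiers, 2 of 6 were higher in neurons. These were Kcnj3 and Kcnj6, the subunits of G protein-gated channels, with log2 ratios of 2.26 and 2.33 for Kcnj3 and of 2.68 and 3.65 for Kcnj6. Of 7 tandem-pore channels the acid-sensitive Kcnk3 and Kcnk9 were called. Of 8 auxiliary subunits, Kcnip2 and Kcnmb2 were, the latter being a partner of Kcnma1, with log2 ratios of 2.88 and 3.58.

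The member with most UMIs was not among the 25. Kcnd2 was at 779 and 852 CPM in neurons and at 834 and 970 CPM in radial glia, a log2 ratio of -0.10 in the WT-labelled and -0.19 in the KO-labelled library. Kcnd3, the other A-type pore, had -0.09 and -0.12. The mechanically gated leak channels Kcnk2 (-0.28 and -0.55) and Kcnk10 (-0.75 and -0.43) had ratios below 0 in either library, and neither was 2-fold lower. The 3 members called higher in radial glia were Kcnj10, Kcnq1 and Kcnip3. Kcnj10, the main inward rectifier of glial cells, was at 27.8 CPM (19.8 to 37.8) and 32.9 CPM (24.6 to 43.1) in radial glia and at 2.24 and 2.50 CPM in neurons. Kcnip3, a calcium-binding protein known both as an A-type channel partner and as a transcription repressor, was at 75.7 and 79.0 CPM in radial glia and 33.0 and 36.3 CPM in neurons. Kcnq1 stood at 7.64 and 11.4 CPM in radial glia, from 11 and 18 UMIs. It was no longer called without the nuclei of highest doublet score, or with Kcn genes kept among the variable genes. At Leiden resolution 2, Kcnip3 was no longer called.

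**Figure D2:**
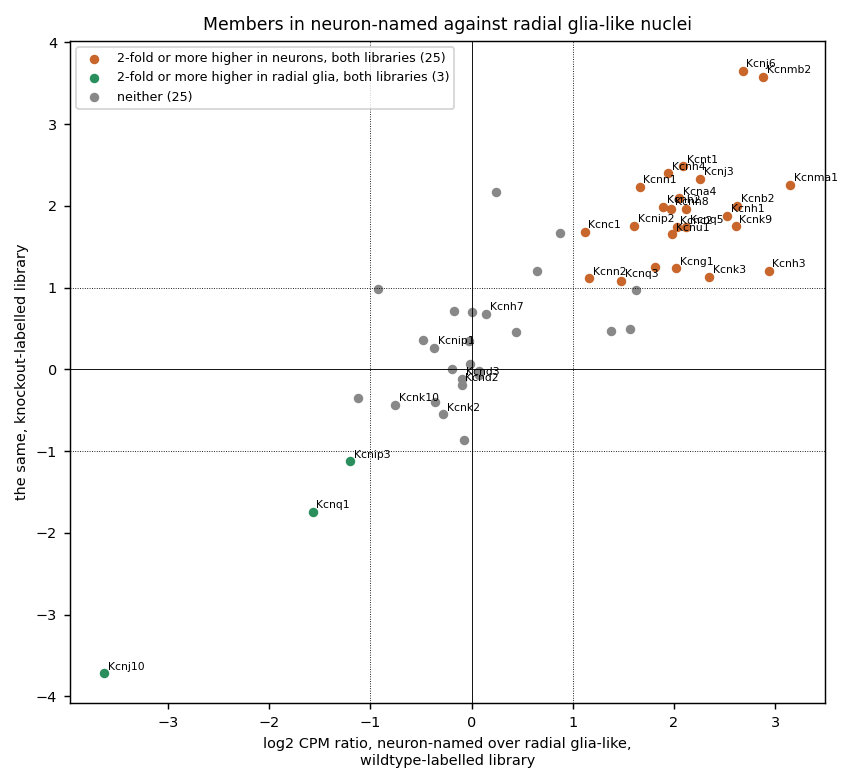
Log2 CPM ratio of neuron-named over radial glia-like nuclei for the 53 members tested, WT-labelled library on the x axis and KO-labelled library on the y axis, with dotted lines at a 2-fold ratio. Of these, 25 lie past 2-fold towards neurons in both libraries and 3 past 2-fold towards radial glia, among them Kcnj10 at -3.63 and -3.72, while Kcnd2, Kcnd3, Kcnk2 and Kcnk10 lie between the lines.

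The promoters of the neuronal members were searched for the parts of RE1, the element bound by REST, a repressor of neuronal genes in other cells. RefSeq's promoter table, 250 bases before to 50 after each start, was given for GRCm38.p6 and matched 67 of the 92 members by symbol, 14 of them among the 25 neuronal ones. The left part, CAGCACC on either strand, occurred in promoters of 4 of these 14 (Kcnc2, Kcnh2, Kcnj6 and Kcnq5), in 10 of all 67 members and in 8.14% of 27025 genes. The right part, GGACAGC, occurred in 1 of the 14 (Kcnq5), in 11 of 67 members and in 7.59% of all genes. The words can overlap by their shared CAGC, and in Kcnq5 they lie apart. Kcnq5 was the sole member of the 14 with both, and it is shown for that reason. The words lie in the windows of separate starts on the minus strand of chromosome 1, at chr1:22032825-22033124 and chr1:22032117-22032416 in GRCm39, found by an exact match of the RefSeq sequence. Capitals mark the matching letters, and a match is not evidence of binding.
Kcnq5 upstream start: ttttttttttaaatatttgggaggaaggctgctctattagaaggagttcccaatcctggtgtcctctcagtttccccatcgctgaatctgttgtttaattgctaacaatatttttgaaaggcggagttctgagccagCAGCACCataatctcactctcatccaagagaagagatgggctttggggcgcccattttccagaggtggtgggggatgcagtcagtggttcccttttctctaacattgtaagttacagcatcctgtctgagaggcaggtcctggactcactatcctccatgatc
Kcnq5 downstream start: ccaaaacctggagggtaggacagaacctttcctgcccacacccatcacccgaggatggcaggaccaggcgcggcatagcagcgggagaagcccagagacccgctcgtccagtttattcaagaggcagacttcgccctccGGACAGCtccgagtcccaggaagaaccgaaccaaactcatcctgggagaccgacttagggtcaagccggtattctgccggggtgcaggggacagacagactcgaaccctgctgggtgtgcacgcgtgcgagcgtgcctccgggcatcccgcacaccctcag

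Within the forebrain, excitatory and inhibitory neurons carried different members. Cortical excitatory neuron-like nuclei (1680 and 1185) were set against forebrain inhibitory neuron-like nuclei (986 and 826). Of 31 members tested, 11 were at least 2-fold higher in the excitatory class in each library, against 5.23% of 10733 genes, and 3 were higher in the inhibitory class, against 3.21%. The members' median log2 ratio was 0.42 and 0.51, beside -0.10 and -0.12 over all genes. Kcnq3 was at 1373 CPM (1338 to 1409) in the excitatory and 193 in the inhibitory class in the WT-labelled library, and at 1331 (1292 to 1372) and 149 CPM in the KO-labelled library. Kcnq5 was at 481 and 61.2 CPM, then at 441 and 58.7 CPM. Kcna1, a low-threshold channel of axons, had ratios of 4.46 and 3.49. These came from 53 and 45 UMIs in the excitatory class and 1 and 2 in the inhibitory class. The excitatory class held 4213708 and 3264233 UMIs in all and the inhibitory class 1749460 and 1635351. A member of low level thus passed the joint minimum more readily if high in the excitatory class. The Kcna1 call was lost with a higher gene minimum, doublet removal, Kcn genes among the variable genes, or the lower Leiden resolution. It held at the higher resolution and with lower UMI minima. Kcng1, a subunit that forms no channel alone and modifies delayed rectifiers, had ratios of 3.28 and 4.19. Kcnn3, a small-conductance calcium-activated channel, had 3.30 and 2.75. Kcna6, Kcnb2, Kcnh5, Kcnip4, Kcnj3 and Kcnt2 complete the excitatory list.

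The inhibitory list, set against the cortical excitatory class only, was Kcnc2, Kcnh8 and Kcnmb2. Kcnmb2 was at 197 and 119 CPM in the inhibitory class and higher, at 244 and 263 CPM, in neuron-like nuclei. Kcnc2, the fast delayed rectifier known from interneurons that fire rapidly in the adult, was at 266 CPM (243 to 292) and 192 CPM (171 to 214) in the inhibitory class and at 33.9 and 49.0 CPM in the excitatory class. Most of it lay in cluster 14, where Kcnc2 reached 541 and 445 CPM. Cluster 16 had 205 and 132 CPM of Kcnc2, and cluster 13 had 38.4 and 42.9 CPM. Lhx6, a factor of interneurons from the medial ganglionic eminence, is a marker of clusters 14 and 16 and not of cluster 13, and Nkx2-1 leads cluster 16. Kcnmb2 had the same order, with 454 and 289 CPM in cluster 14, 74.6 and 68.1 CPM in cluster 16 and 41.8 and 29.8 CPM in cluster 13.

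Members also differed among cortical excitatory clusters, with Unc5d high in cluster 4, Tafa1 in cluster 5 and Fezf2 in clusters 6 and 15. Kcnq5 was at 148 and 130 CPM in cluster 4, 251 and 221 in cluster 5, 770 and 699 in cluster 6 and 781 and 767 in cluster 15. Kcnma1 went from 35.04 and 28.3 CPM in cluster 4 to 337 and 310 in cluster 6. Both channels were low in the Unc5d cluster and several-fold higher in clusters 6 and 15 of either library. Kcnn2 was at 134 and 122 CPM in cluster 5, and at 386 and 381 in cluster 6 and 430 and 417 in cluster 15. Kcnh5, an ether-a-go-go channel, was highest in cluster 4, with 94.0 and 100.4 CPM in cluster 4, 31.1 and 19.5 in cluster 5 and 39.6 and 47.2 in cluster 6. Kcnh5 was also at 75.9 and 75.7 CPM in intermediate progenitor-like nuclei, where it ranked among the leading members with Kcnip3 at 89.2 and 94.7 CPM. Kcnb2 was at 97.9 and 156 CPM in radial glia and at 562 and 608 CPM in intermediate progenitors, whereas Kcnq3 was at 93.0 and 130 CPM there, below its 255 and 273 CPM in radial glia.

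**Figure D3:**
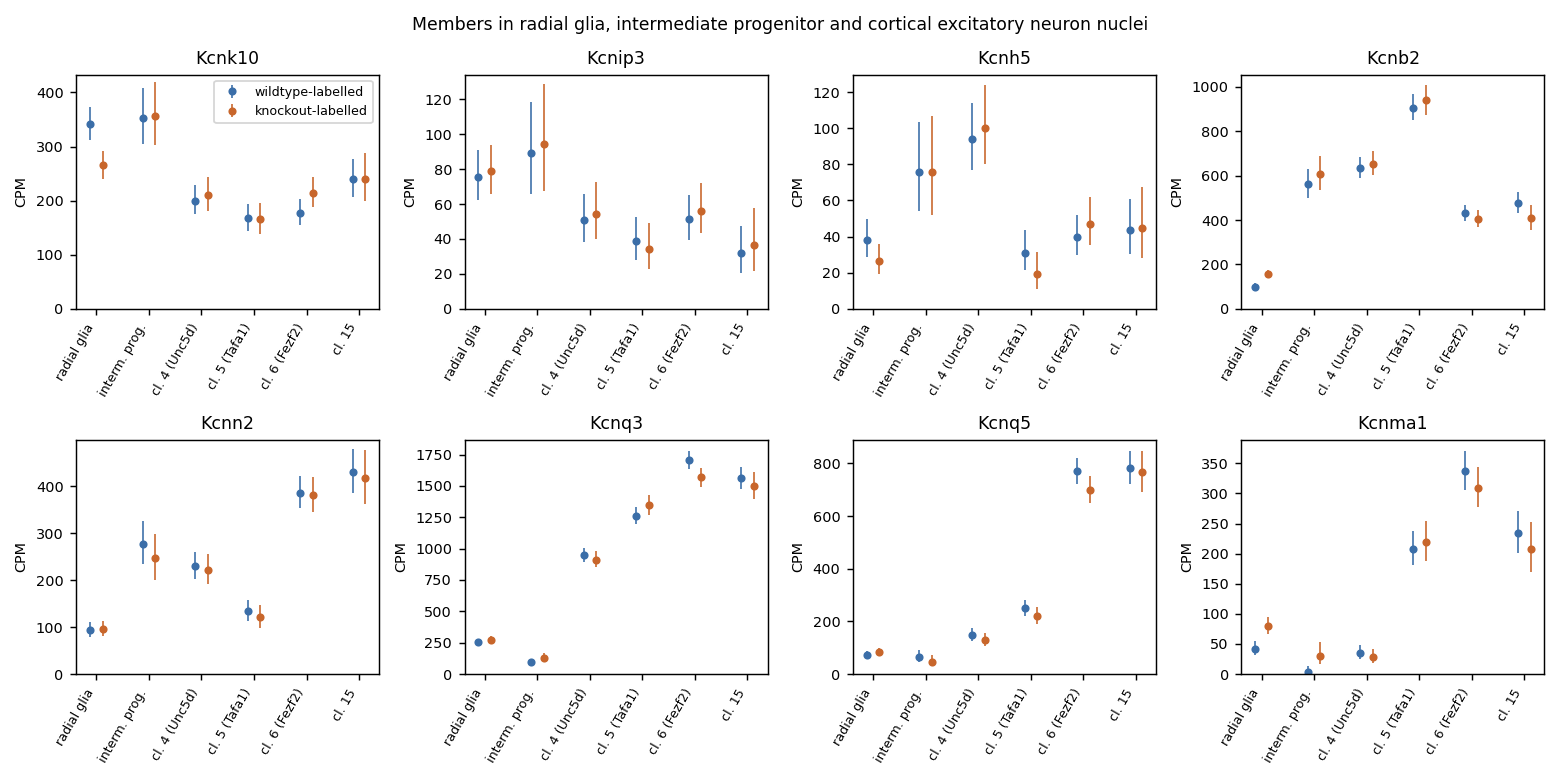
Level of 8 members in CPM, with 95% counting intervals, in radial glia-like, intermediate progenitor-like and 4 cortical excitatory neuron-like clusters (cl., some with a gene high in them; Fezf2 is also a marker of cluster 15), WT-labelled library in blue and KO-labelled in orange. Kcnq5 and Kcnma1 are highest in clusters 6 and 15, Kcnh5 in cluster 4, and Kcnk10 and Kcnip3 in radial glia and intermediate progenitors.

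The remaining classes of neurons had leading members too, some of them shared. In other excitatory neuron-like nuclei (609 and 613), Kcnj6 was at 99.2 and 101 CPM, 4.03-fold and 3.16-fold above all other nuclei. It was highest in cluster 17, at 156 and 155 CPM, whose markers include Tcf7l2 and Shox2. Kcnj6 was also high in other inhibitory neuron-like nuclei, at 77.1 and 67.5 CPM, 3.10-fold and 2.32-fold above other nuclei. In other inhibitory neuron-like nuclei (673 and 961), Kcna4, an A-type pore of axons, was at 16.7 and 22.6 CPM, 2.97-fold and 2.91-fold above other nuclei. Kcnc4, a rapidly inactivating delayed rectifier relative, was at 7.22 and 9.83 CPM there. Among nuclei named by general neuron markers alone (502 and 680), Kcnh1 was at 69.3 and 63.7 CPM. Its level was 161 and 163 CPM in cluster 18, led by Ikzf1, Rxrg and Rarb, and 30.8 and 46.4 CPM in cluster 11. Both clusters had forebrain inhibitory markers, Dlx5, Gad2 and Isl1 in cluster 18 and Gad1, Gad2, Sp8 and Isl1 in cluster 11. Nuclei of this class had 1237 and 1210 CPM of that marker list. Cajal-Retzius cell-like nuclei were led by Kcnh7, at 2854 CPM (2567 to 3165) and 2719 CPM (2450 to 3011), 4.68-fold and 4.53-fold above other nuclei. Kcnb2 stood at 1364 and 1679 CPM in them. Kcnip4 had 136 and 325 UMIs in them (1078 and 2382 CPM), a log2 ratio between the libraries of 1.14 (0.85 to 1.44) in a class too small for the calls within classes.

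Outside the nervous lineage a few members marked single classes. Mural cells of vessels carried Kcnj8, the pore of ATP-sensitive channels in vascular muscle and pericytes. Of all Kcnj8 UMIs, 18 of 37 in the WT-labelled and 29 of 77 in the KO-labelled library fell in only 34 and 39 mural cell-like nuclei. This was 184 CPM (109 to 291) and 233 CPM (156 to 335), or 166-fold and 95.9-fold above all other nuclei. Abcc9, the regulatory subunit of the same channel, was at 1329 and 1077 CPM in these nuclei. Abcc9 took part in the clustering and led this cluster, so its level there is a description. Endothelial cell-like nuclei had 3 and 13 Kcnj8 UMIs, and Abcc9 was at 46.3 and 77.1 CPM there. The promoters of the pair are shown because the proteins form 1 channel. They lie on the minus strand at chr6:142517291-142517590 for Kcnj8 and chr6:142647951-142648250 for Abcc9 (GRCm39, RefSeq sequence). Kcnj8 has 9 CpG pairs in its 300 bases and Abcc9 has 16, beside a median of 7 over all promoters (quartiles 3 and 20). Capitals in Abcc9 mark TAATCC, the word bound by OTX factors.
Kcnj8: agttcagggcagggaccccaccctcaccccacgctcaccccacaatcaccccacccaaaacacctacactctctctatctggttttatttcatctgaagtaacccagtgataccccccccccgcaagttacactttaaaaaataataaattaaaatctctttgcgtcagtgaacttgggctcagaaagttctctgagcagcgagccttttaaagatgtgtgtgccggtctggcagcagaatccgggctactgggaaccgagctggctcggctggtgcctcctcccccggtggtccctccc
Abcc9: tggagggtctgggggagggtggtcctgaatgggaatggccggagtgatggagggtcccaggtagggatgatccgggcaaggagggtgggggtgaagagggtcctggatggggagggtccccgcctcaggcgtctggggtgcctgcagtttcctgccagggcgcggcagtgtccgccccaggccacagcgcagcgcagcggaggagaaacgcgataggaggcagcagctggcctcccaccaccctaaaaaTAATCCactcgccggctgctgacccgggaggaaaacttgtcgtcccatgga

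The choroid plexus epithelium, which secretes cerebrospinal fluid, carried Kcne2 and Kcnj13. Kcne2, an auxiliary subunit of the apical potassium channels of this epithelium, had 38 of its 72 UMIs in 48 choroid nuclei of the WT-labelled library and 34 of 73 UMIs in 46 nuclei of the KO-labelled library. Its level was 201 CPM (142 to 276) and 167 CPM (116 to 234), 101-fold and 84.4-fold above other nuclei. Kcnj13, the apical inward rectifier of the same cells, was at 180 CPM (125 to 251) and 172 CPM (120 to 239), 6.26-fold and 6.03-fold above other nuclei. Elsewhere Kcnj13 was at 20.4 to 63.1 CPM in the named classes of the WT-labelled library. Gigyf2, in which it lies, was at 423 and 354 CPM in the choroid class and between 124 and 245 CPM in the other named classes, so both genes of the pair were highest there. The ether-a-go-go channel Kcnh1 was at 143 and 152 CPM in choroid nuclei, from 27 and 31 UMIs.

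Promoters of both choroid members are shown with the word TAATCC in view, because Otx2 marks this epithelium. The word occurred in 2 of 67 members and in 8.14% of all genes, and on neither strand of the windows of Kcne2 or Kcnj13, which says nothing about the factor. Kcne2 has separate starts on the plus strand, at chr16:92089027-92089326 and chr16:92092254-92092553, and Kcnj13 is on the minus strand at chr1:87322402-87322701. They hold 9, 1 and 5 CpG pairs in that order.
Kcne2 upstream start: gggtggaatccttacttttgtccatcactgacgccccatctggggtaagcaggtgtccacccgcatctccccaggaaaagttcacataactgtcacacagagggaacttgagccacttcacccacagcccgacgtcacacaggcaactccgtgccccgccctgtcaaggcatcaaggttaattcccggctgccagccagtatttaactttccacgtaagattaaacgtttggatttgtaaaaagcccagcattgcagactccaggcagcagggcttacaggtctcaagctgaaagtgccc
Kcne2 downstream start: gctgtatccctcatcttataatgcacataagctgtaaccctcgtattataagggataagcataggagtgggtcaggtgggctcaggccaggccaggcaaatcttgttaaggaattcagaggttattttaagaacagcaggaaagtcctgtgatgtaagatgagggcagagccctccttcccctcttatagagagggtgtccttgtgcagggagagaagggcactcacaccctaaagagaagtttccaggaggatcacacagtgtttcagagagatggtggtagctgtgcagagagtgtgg
Kcnj13: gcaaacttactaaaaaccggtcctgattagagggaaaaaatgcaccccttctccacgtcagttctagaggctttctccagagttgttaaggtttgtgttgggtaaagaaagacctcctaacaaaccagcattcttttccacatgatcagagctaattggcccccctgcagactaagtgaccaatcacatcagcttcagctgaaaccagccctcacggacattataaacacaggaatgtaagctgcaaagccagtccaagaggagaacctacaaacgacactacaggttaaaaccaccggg

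Endothelial cell-like nuclei (48 and 64) carried Kcnq1, a slowly opening voltage-gated channel best known from heart and epithelia, at 69.5 CPM (41.2 to 110) and 82.7 CPM (55.8 to 118), 19.6-fold and 20.2-fold above other nuclei. The antisense RNA Kcnq1ot1 is read from the same locus, and without strand in the counting their reads cannot be told apart. Kcnq1ot1 was at 417 and 463 CPM in endothelial nuclei and at 658 and 656 CPM in fibroblast-like nuclei, where Kcnq1 was at only 8.26 and 2.57 CPM. The 2 genes thus had different orders over these classes. Kcnj2, a strong inward rectifier of endothelium, was at 27.0 and 46.8 CPM in endothelial nuclei, where 7 of its 18 and 17 of its 34 UMIs lay. Fibroblast-like nuclei (110 in each library) were led by Kcnt2, a sodium-activated channel, at 333 CPM (276 to 398) and 283 CPM (233 to 341), and by Kcnk2 at 336 and 412 CPM. The leak channel Kcnk5 was a leading member of the progenitor classes, at 11.8 and 10.7 CPM in radial glia-like nuclei and 10.6 and 15.3 CPM in dividing-like nuclei.

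**Figure D4:**
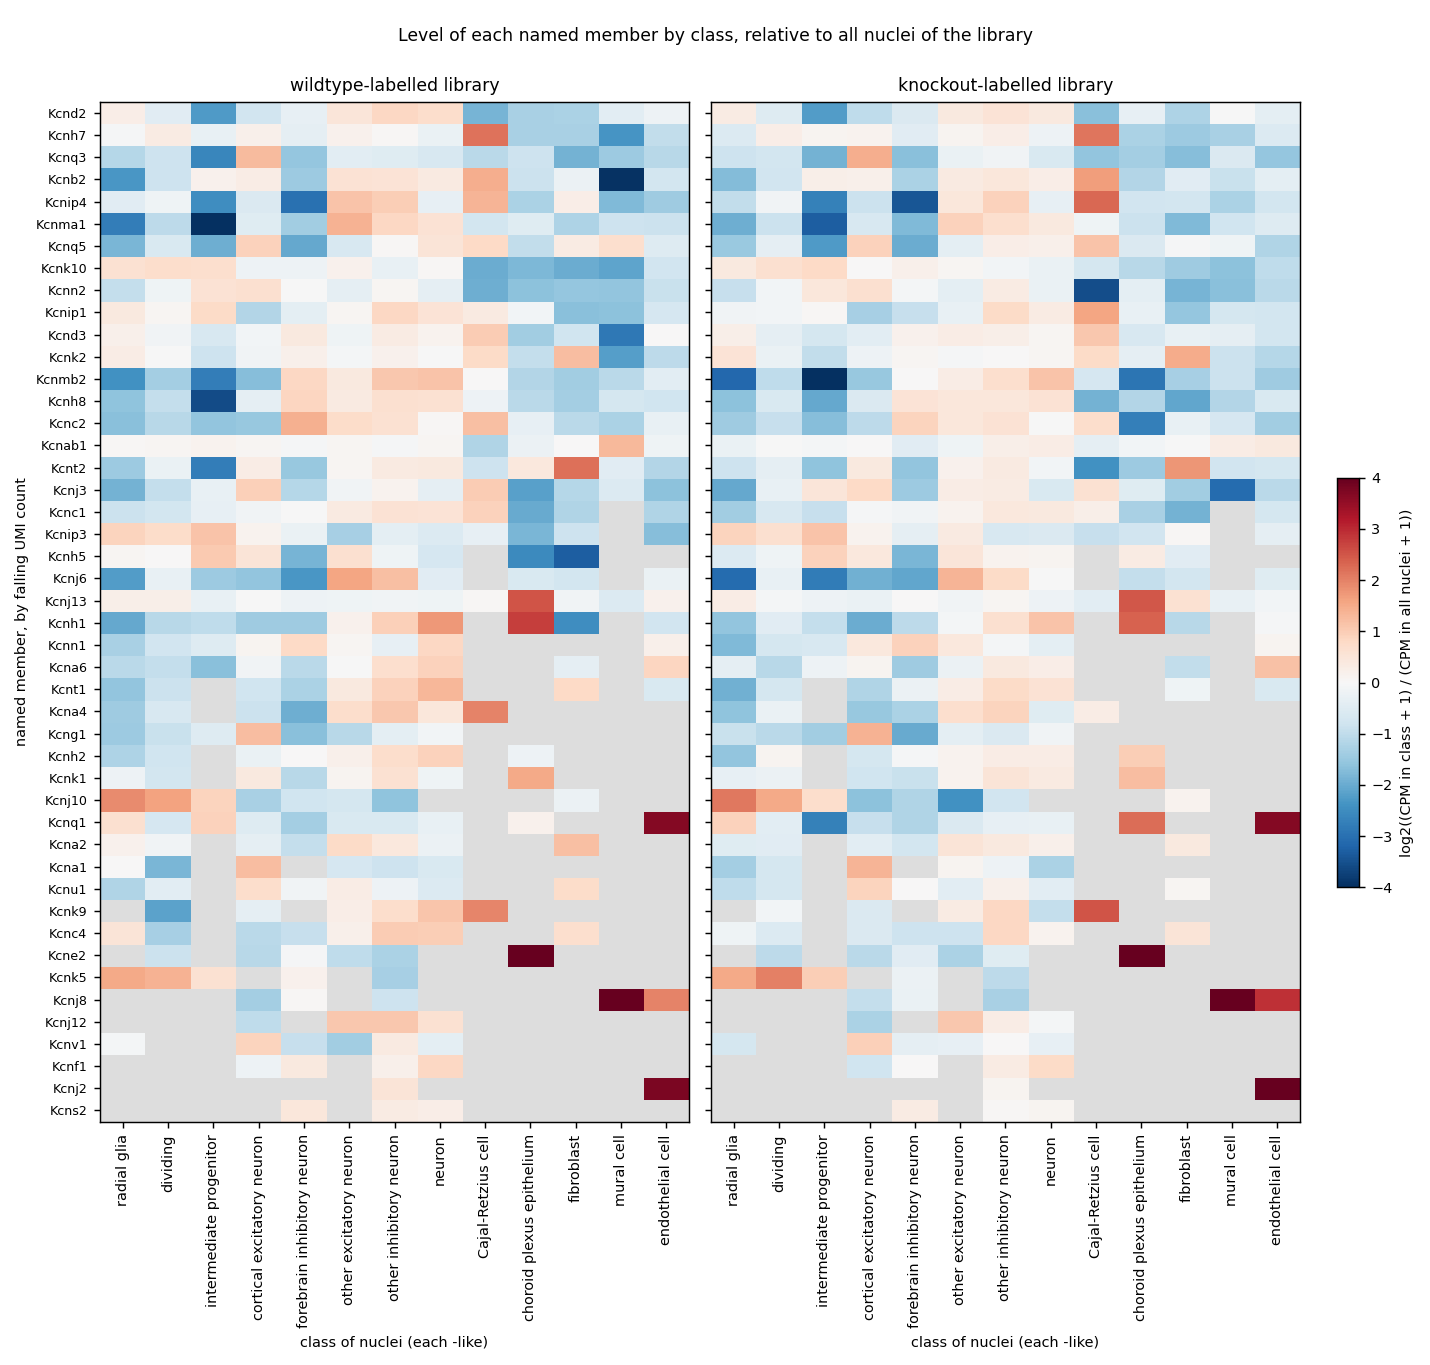
Level of 46 named members in 13 classes, as log2 of (CPM in the class + 1) over (CPM in all nuclei + 1), for the WT-labelled (left) and KO-labelled (right) library. Colours end at 4 on either side, and grey marks classes with fewer than 5 UMIs of the member in both libraries together. Kcne2 in choroid plexus, Kcnj8 in mural cells and Kcnq1 and Kcnj2 in endothelium stand out in both panels.

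Between the libraries, potassium channel RNA as a whole differed little. The family's log2 ratio of the KO-labelled over the WT-labelled library was 0.05 (0.04 to 0.07), and -0.01 once the classes were weighted to the make-up of the WT-labelled library, which turns its sign. By subfamily, the Kcnq genes had a ratio of -0.18 (-0.21 to -0.15), the Kcnip genes 0.19 (0.16 to 0.23) and the Kcnd genes 0.16 (0.13 to 0.20). Of the abundant members, Kcnq3 went from -0.24 to -0.06 with the weighting, Kcnd2 from 0.16 to -0.01, Kcnip4 from 0.21 to -0.03 and Kcnip1 from 0.20 to -0.02. The class shares moved beside these values. Cortical excitatory neuron-like nuclei, the class with the highest Kcnq3 level, were 25.1% of WT-labelled and 17.7% of KO-labelled nuclei, and other inhibitory neuron-like nuclei, with the highest Kcnd2 level, were 10.1% and 14.4%. With 1 library each, genotype, dissection and capture cannot be told apart.

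Of the 60 members tested, 7 exceeded 1.5-fold towards the KO-labelled library with an interval beyond 0, against 2.12% of 15528 genes. None was 1.5-fold lower, against 0.605% of all genes, and this count was also 0 by the fold alone. The members' median log2 ratio was 0.09, with 41 above and 19 below 0. Over all genes it was -0.01, with 7212 above and 8315 below 0. With class weighting the members' median was 0.04, beside -0.01 over all genes. All 7 were of low level. The voltage-gated ones were Kcna4, Kcnc4 and Kcnh2. Kcna4 went from 126 UMIs (7.32 CPM) to 231 UMIs (11.6 CPM), a log2 ratio of 0.67 (0.35 to 0.99). Kcnc4 went from 3.08 to 5.08 CPM (0.72, 0.23 to 1.23). Kcnh2, which sets repolarisation in heart and is also found in neurons, went from 6.22 to 9.51 CPM (0.61, 0.26 to 0.97). Among leak channels, Kcnk1 went from 84 UMIs (4.88 CPM) to 196 UMIs (9.86 CPM), a ratio of 1.01 (0.64 to 1.40), and Kcnk9 from 3.37 to 5.58 CPM (0.73, 0.26 to 1.21). Among inward rectifiers, Kcnj8 went from 37 to 77 UMIs (0.85, 0.27 to 1.46) and Kcnj12 from 34 to 71 UMIs (0.85, 0.24 to 1.49).

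Class weighting left 3 of the 7 past 1.5-fold, against 1.38% of all genes. These were Kcnk1 at 0.84, Kcnj8 at 0.77 and Kcnj12 at 0.68. The other 4 stood between 0.40 and 0.52, and none was 1.5-fold lower, against 0.554%. Kcna4, Kcnc4 and Kcnk9 had most of their UMIs in neurons and their largest counts in the other inhibitory class, which made up more of the KO-labelled library. Within that class Kcna4 had a log2 ratio of 0.43 (-0.08 to 0.97) and Kcnc4 of 0.45 (-0.34 to 1.29). The part of the class make-up in the 4 lost calls, Kcnh2 included, was not tested. Kcnk1 was higher in the KO-labelled library in several classes, with 21 and 75 UMIs (7.98 and 14.5 CPM) in other inhibitory neuron-like nuclei, 6 and 27 UMIs in neuron-like nuclei and 10 and 23 in other excitatory neuron-like nuclei. In cortical excitatory neuron-like nuclei Kcnk1 had 28 and 17 UMIs (6.64 and 5.21 CPM). For Kcnj8, mural cell-like nuclei had 184 and 233 CPM, within their intervals. Endothelial cell-like nuclei, given above, held more Kcnj8 UMIs in the KO-labelled library, and the unnamed cluster of low UMIs held 3 and 10. Kcnj12 had 0 and 7 UMIs in that unnamed cluster.

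**Figure D5:**
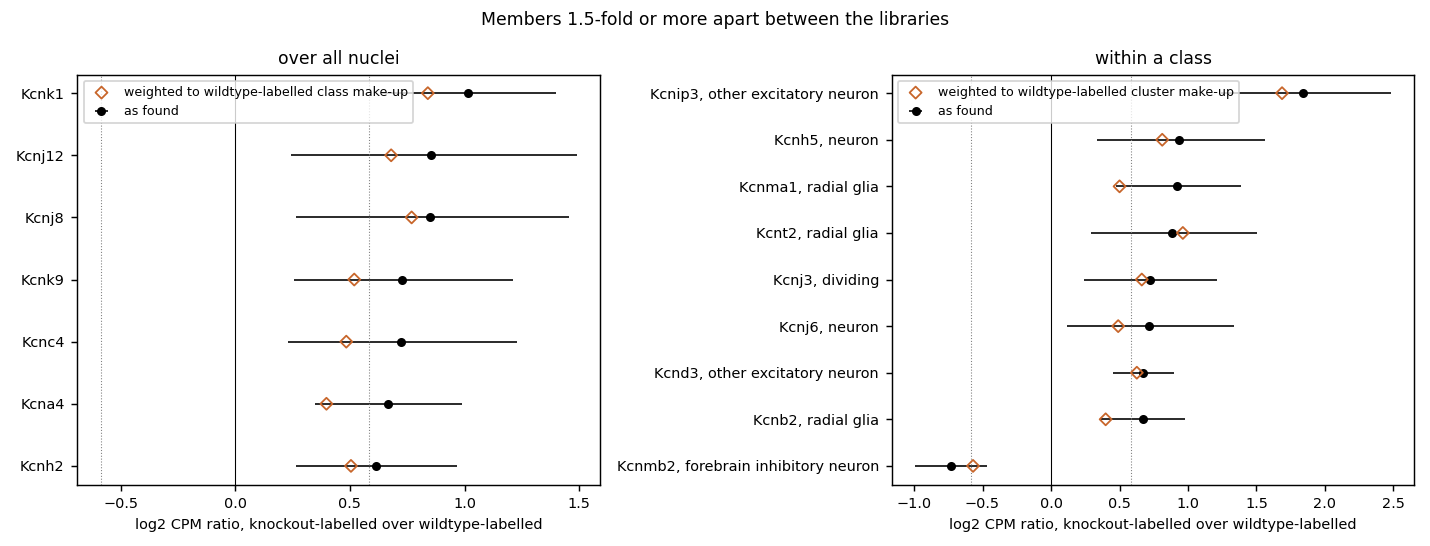
Log2 CPM ratio of the KO-labelled over the WT-labelled library for the 7 members called over all nuclei (left) and 9 of the members called within a class (right). Black points with bars are ratios as found with 95% counting intervals, open diamonds are ratios weighted to the WT-labelled make-up, and dotted lines mark 1.5-fold. Kcnk1 at 1.01 and Kcnip3 in other excitatory neurons at 1.84 lie farthest out, and Kcnmb2 in forebrain inhibitory neurons is the 1 value below 0.

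Within classes of at least 200 nuclei per library, 10 members were called. In radial glia-like nuclei, 3 of 21 members were higher, against 2.5% of all genes. These were Kcnma1 (0.92), Kcnt2 (0.89) and Kcnb2 (0.67). The class holds cluster 1, with 238 and 332 nuclei, and cluster 10, with 372 and 243. Weighted to the WT-labelled make-up of these clusters, Kcnma1 was at 0.50 and Kcnb2 at 0.40, under 1.5-fold, and Kcnt2 at 0.96. Kcnma1 itself was at 60.8 and 111 CPM in cluster 1 and at 28.2 and 20.3 CPM in cluster 10. None of the 21 was lower, against 1.89%. Marker lists of other cells differed in the class as well, some higher and some level or lower. The 7 oligodendrocyte precursor markers, all detected in either library, summed to 330 and 572 CPM. The 13 other excitatory neuron markers, also all detected, summed to 722 and 1027 CPM. The general neuron list was level at 2527 and 2537 CPM, and the cortical excitatory list went from 2109 to 1812 CPM. The intermediate progenitor list went from 485 to 397 CPM. In cluster 1 the radial glia marker Ednrb had a log2 ratio of 0.64 (0.27 to 1.02). Others of its list had intervals that held 0, such as Hes5 (0.04) and Ptprz1 (-0.03). The part of these in the 3 calls was not tested.

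The largest difference within a class was that of Kcnip3 in other excitatory neuron-like nuclei, with 29 UMIs (15.3 CPM) in the WT-labelled and 114 UMIs (54.7 CPM) in the KO-labelled library, a log2 ratio of 1.84 (1.24 to 2.48). It lay in cluster 7, of 341 and 421 nuclei, where 14 UMIs stood against 100 (13.8 and 76.1 CPM). In cluster 17 of the same class Kcnip3 had 15 and 14 UMIs. Kcnip4 moved the other way in cluster 7, with 1246 and 710 UMIs (1225 and 540 CPM). Some of the 13 other excitatory neuron markers moved in cluster 7 as well, with log2 ratios of 0.60 for Tfap2d and -0.35 for Ebf1. Pou4f2 had 1.46 (0.46 to 2.57), from 11 and 39 UMIs. Others had intervals that held 0, among them Slc17a6 (0.16), Tcf7l2 (0.06), Lhx9 (-0.15), Ebf3 (0.05) and Pou4f1 (-0.01). A different mix of neurons within the cluster was not tested. Kcnd3, the A-type pore that these proteins bind, had a ratio of 0.67 (0.45 to 0.90) in the class, and 0.63 with cluster weighting. These were 2 of 28 members tested, against 1.8% of all genes, and none was lower, against 1.05%.

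In forebrain inhibitory neuron-like nuclei, Kcnmb2 was the 1 of 22 members that was lower, against 0.857% of all genes, and none was higher, against 1.29%. It fell from 344 UMIs (197 CPM) to 194 UMIs (119 CPM), a log2 ratio of -0.73 (-0.99 to -0.47), and of -0.57 with cluster weighting, just under 1.5-fold. In neuron-like nuclei 2 of 28 members were higher, against 1.84%, and none lower, against 1.03%. Kcnh5 had a ratio of 0.94, and 0.81 with cluster weighting, and Kcnj6 had 0.71 and 0.49, the latter under 1.5-fold. Kcnh5 was higher in 2 and Kcnj6 in 1 of the 2 clusters of the class. The class holds cluster 11, with 352 and 571 nuclei, and cluster 18, with 150 and 109. Its 13 other excitatory neuron markers, all detected, summed to 2834 and 1829 CPM, and their part in these calls was not tested. In cortical excitatory neuron-like nuclei 1 of 30 members was higher, against 0.779%, and none was lower, against 0.747%. In dividing-like nuclei Kcnj3 was higher (1 of 24, against 2.31%), at 37.6 and 61.9 CPM, and none was lower, against 1.13%. In other inhibitory neuron-like nuclei, 0 of 34 members were higher and 0 lower, against 1.87% and 0.858% of all genes.

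Genes that work with the channels were taken from a list of 22, of which 19 reached 100 UMIs. The list held channel partners, the related cation channels of the Hcn group, the sodium-potassium pump and potassium chloride cotransporters. Neurons were at least 2-fold above radial glia in each library for 9 of 18 tested, against 9.07% of all genes. These included Dpp6 and Dpp10, partners of the A-type pores, the pacemaker channels Hcn2 and Hcn3 and the chloride exporter Slc12a5. Slc12a5 was at 53.2 CPM in neurons and 6.94 in radial glia in the WT-labelled library, and at 64.5 and 13.3 CPM in the KO-labelled library. In radial glia 1 of the 18 was higher, against 8.99%. Between the libraries 1 of 19 was higher, against 2.12% of all genes. This was Atp1b1, a beta subunit of the pump, at 32.5 and 55.6 CPM (0.78, 0.63 to 0.93), and it stood at 0.60 with class weighting. None was lower, against 0.605%, and the list's median log2 ratio was 0.16.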

How the data were processed

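UMIs, raw counts per gene and barcode, were deposited by the authors. Per the file headers, Cell Ranger 6.1.1 made them, and the submitters' processing notes list Cell Ranger 3.0.1, STAR and the GRCm39 build without giving their roles. Intron and strand counting are not given in the sources used here. No barcode held under 500 UMIs, so barcodes had been filtered before deposit. After the gene minimum (2969 of 9763 and 3904 of 10811 barcodes removed) and the mitochondrial limit (108 and 227 removed), no nuclei were removed as doublets, since Scrublet's automatic threshold marked 0 in each library.

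Nuclei of both libraries were clustered with scanpy 1.11.5, without Kcn genes, Cav1, mitochondrially encoded, Xist, Tsix and Y-linked genes. The settings were 2000 variable genes in total, ranked within each library, 30 components, 15 neighbours and Leiden resolution 1, which gave 26 clusters. A cluster was named from at least 3 markers, held by no other list, that were 2-fold above other clusters and 1.5-fold within each library. These thresholds were set after the clusters were seen, and the names are not the authors' annotation. CPM and ratios come from UMI sums per library and class, with exact Poisson and exact Clopper-Pearson (binomial) intervals (scipy 1.17.1). With 1 library per group no p-value is given. The calls were tested on simulated data. Gene lengths and overlaps are from GENCODE M39 (all 92 members matched by identifier).

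Named members were the 15 with most UMIs, the 2 with the largest fold in each class of at least 30 nuclei, those called between the libraries, the most abundant of each subfamily and a list of known cell type genes. Kcnn3, Kcnk3 and others outside this rule appear where a count or call names them, chosen after their values were seen. Some genes are not reported here by name, and they stay in the counts. The members and lists were chosen with earlier results of these data known. Alternatives changed the gene minimum, doublets, scaling, class weighting, UMI minimum, resolution and variable genes.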

Additional observations from a re-analysis of the deposited data

Results flagged for a closer look

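For 9 of 35 members tested in 7 classes of at least 200 nuclei per library, the log2 ratio of the KO-labelled over the WT-labelled library had intervals beyond 0 in opposite directions in a pair of classes, and for 3 of them the ratios were at least 2-fold apart, a limit chosen after seeing the data. Of these 3, 2 are described. The same counts were not made over all genes, so they are not read as a trait of the family. Kcnma1, the large-conductance calcium-activated channel, had a ratio of 0.92 (0.47 to 1.39) in radial glia-like and -0.36 (-0.48 to -0.25) in other excitatory neuron-like nuclei. With the radial glia clusters weighted to the WT-labelled make-up its ratio there was 0.50, with cluster 1 higher and cluster 10 lower in the KO-labelled library, and the classes were then under 2-fold apart. Kcnc2, the fast delayed rectifier, had 0.53 (0.20 to 0.87) in cortical excitatory and -0.47 (-0.68 to -0.26) in forebrain inhibitory neuron-like nuclei. Cluster 14, with most of the inhibitory Kcnc2, had 317 of 986 nuclei of its class in the WT-labelled and 212 of 826 in the KO-labelled library. Within clusters the Kcnc2 ratio was -0.28 (-0.54 to -0.03) in cluster 14, -0.64 (-1.07 to -0.22) in cluster 16 and 0.16 (-0.74 to 1.06) in cluster 13. With 1 library per genotype, the difference between the classes was not tested for either.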

How the results depend on the processing

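No paired analysis was possible because each group has 1 library, and no replicate could be left out. The family's log2 ratio of 0.053 was 0.067 with scaling by the median ratio of all genes (-0.01, which is subtracted from each value), and -0.011 with class weighting, the single setting that turned its sign. The count of 7 members higher in the KO-labelled library was 4 with the 8% of nuclei of highest Scrublet score removed (without Kcnj12, Kcnj8 and Kcnk9, whose ratios were 0.93, 1.07 and 0.55) and 3 with class weighting. With a minimum of 1000 genes per nucleus, 1 member, Kcng1, was called lower in place of 0, and 5 higher, without Kcnj12 and Kcnj8, at 0.68 and 0.84. Kcnj12 and Kcnj8 thus kept a ratio past 1.5-fold in both settings and lost the call by the other conditions, the UMI minimum or the interval. Without a UMI minimum, 6 in place of 3 members were higher in radial glia, 20 in place of 11 in cortical excitatory and 10 in place of 3 in forebrain inhibitory neurons, since more members entered. With a minimum of 20 UMIs the cortical excitatory count was 17. At resolution 0.5 the forebrain inhibitory count was 5, and no radial glia class was named, so the neuronal count has no value there. The neuronal count of 25 lay between 25 and 35 in all settings that gave it. Of the 48 named members' ratios, all stayed within their interval with 1000 genes, doublet removal and median scaling, and 11 moved beyond it with class weighting.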
